A study of Mus musculus with 16 samples.

Results

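The 10 genes described here encode cell-surface receptor tyrosine kinases whose signalling has been linked to resistance against BRAF inhibitors: Egfr, Erbb2, Erbb3, Met, Igf1r, Axl, Pdgfra, Pdgfrb, Fgfr1 and Fgfr2. They were chosen by gene symbol, and 15 of the 55681 non-control probes of the array carried one of these names. All 10 were measured above background on at least 4 arrays, as were 21985 genes in all. The study profiled 16 mouse melanoma biopsies on 16 two-colour Agilent arrays, 4 per group. The groups were untreated tumours, tumours after 4 days and after 60 days of BRAF inhibitor, and tumours that had become resistant, sampled at 120 days. On every array the tumour RNA was labelled with Cy5 and hybridised against Cy3-labelled Universal Mouse Reference, a commercial pool of RNA. The inhibitor, the tumour genotype, the strain and the age of the mice are not given in the sources used here, and neither is whether 2 biopsies could come from the same mouse. The p-values therefore measure the spread between these biopsies. The main model had no slide term, so this spread includes any difference between the array slides described below.

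Receptor tyrosine kinases bind a growth factor outside the cell, pair up, and phosphorylate each other inside it, which recruits adaptor proteins and switches on the RAS to ERK and PI3K to AKT pathways. Mutant BRAF drives the ERK pathway below the receptors, so a receptor that becomes more active can restart ERK or AKT signalling while BRAF is blocked. Such activation can occur with or without a change in the receptor's mRNA, and only mRNA was measured here.

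A value is the log2 ratio of tumour to reference signal, so 0 means a level equal to the reference and 1 a doubling. Probes differ in efficiency, so ratios are compared between biopsies and not between receptors. The arrays detected between 49.0% and 54.2% of probes well above background in the tumour channel. All 16 melanocyte markers were measured, and 11 of them were above background on every array. The arrays lay on 2 slides of 8, each with 2 biopsies of every group: replicates 3 and 4 on slide 1 and replicates 1 and 2 on slide 2. The array of resistant replicate 1 stood apart from the rest, with a median correlation of 0.696 with the other arrays against 0.822 to 0.913 for each of the others.

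None of the 10 receptors passed an adjusted p of 0.05 in any of the 6 comparisons between groups, in limma with Benjamini-Hochberg adjustment over all 21985 genes. In 4-day against untreated tumours 0 of 10 passed, where 1.34% of all genes did, and 1 receptor had an unadjusted p under 0.05, where 16.7% of all genes did. In 60-day against untreated tumours 0 passed (0.819% of all genes) and 2 had an unadjusted p under 0.05 (18.7%). In resistant against untreated tumours 0 passed (0.0182%) and 0 had an unadjusted p under 0.05 (9.52%). For resistant against 4-day tumours the counts were 0 (0.00455%) and 1 (8.19%), for resistant against 60-day tumours 0 (0%) and 1 (5.67%), and for 60-day against 4-day tumours 0 (0%) and 0 (1.87%). In the F test for any difference among the 4 groups 0 receptors passed (0.268% of all genes) and 1 had an unadjusted p under 0.05 (13.6%), namely Pdgfrb (F = 4.22, unadjusted p = 0.0245, adjusted p = 0.292 in limma). The receptors' shares were therefore near or below those of all genes in the comparisons with untreated tumours.

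**Figure D1:**
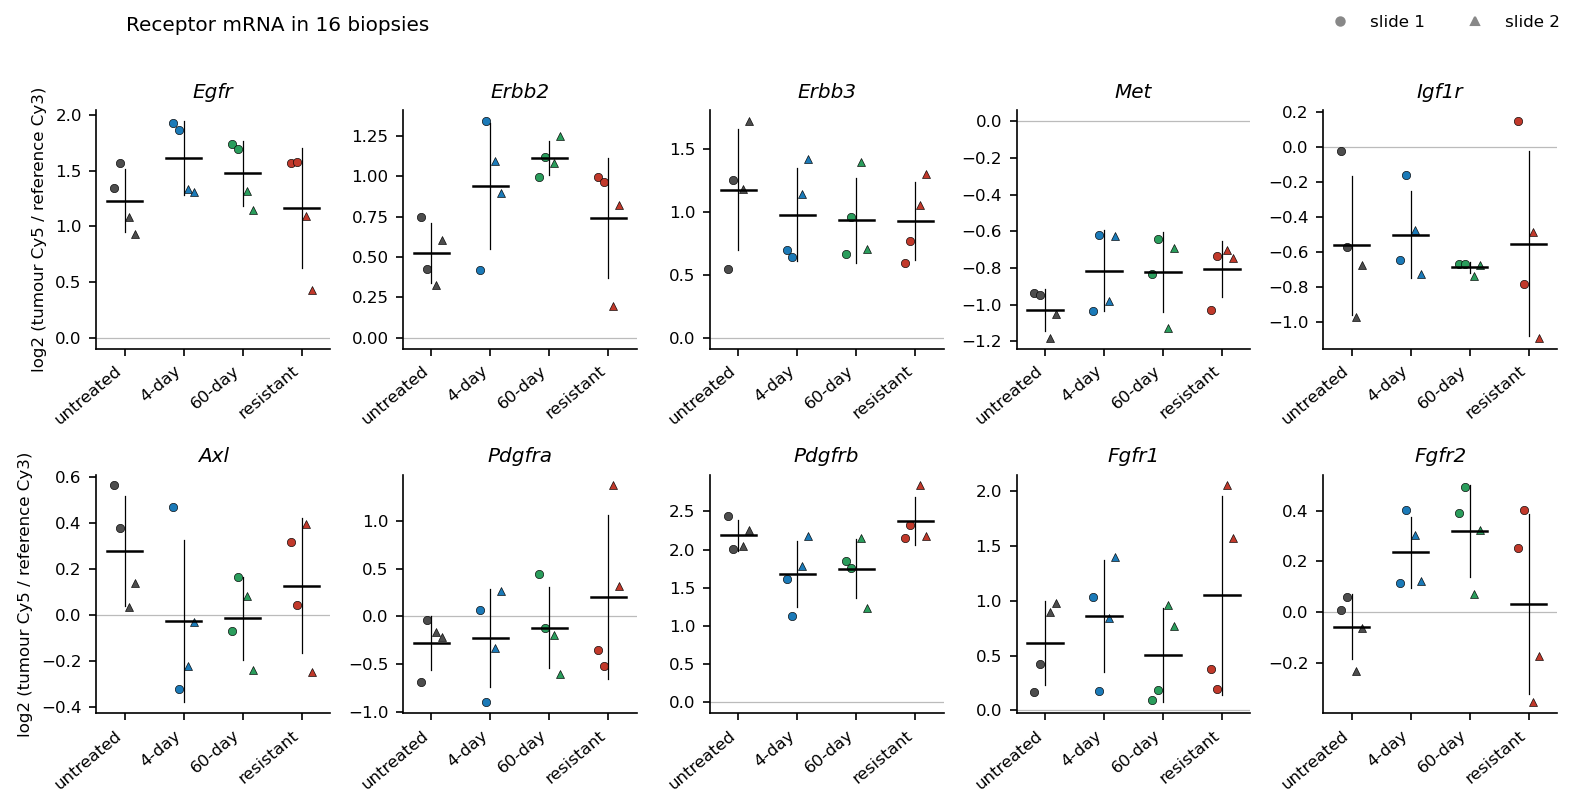
Log2 tumour over reference ratio (vertical axis) of each receptor in the 4 groups (horizontal axis), circles for slide 1 and triangles for slide 2, with the group mean (bar) and 1 SD (line, n = 4). Erbb2 in the 60-day tumours (0.99 to 1.25) lies above all untreated tumours (0.33 to 0.75). The Fgfr2 values of the 60-day tumours (0.07 to 0.49) also lie above the untreated ones (-0.23 to 0.06), though the nearest values almost meet.

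Erbb2 encodes the ERBB family member that binds no known ligand and serves as the preferred partner of the other members. Its log2 ratio was 0.33, 0.61, 0.75 and 0.42 in untreated replicates 1 to 4 and 1.08, 1.25, 0.99 and 1.12 in the 60-day tumours. The 2 groups did not overlap. It was 1.09, 0.89, 0.42 and 1.34 in the 4-day tumours and 0.20, 0.82, 0.99 and 0.96 in the resistant tumours, so 3 of the 4 biopsies in each of these groups lay above all untreated ones, while 4-day replicate 3 and resistant replicate 1 did not. The 60-day mean exceeded the untreated mean by 0.59 ± 0.20 (SE; 95% interval 0.16 to 1.01, not adjusted for the number of comparisons; 1.50-fold), with an unadjusted p of 0.0103 and an adjusted p of 0.146 in limma. The difference was 0.47 on slide 1 and 0.70 on slide 2. Erbb2 passed the threshold when only the 2 groups were fitted (adjusted p = 0.0337) and when arrays were weighted by quality (difference 0.61, adjusted p = 0.00521). With array weights the 4-day difference also passed (0.55, adjusted p = 0.00878), where equal weights gave 0.41 (95% interval -0.01 to 0.83; adjusted p = 0.316). These settings called many more genes in all: 1258 of 21985 at 60 days with the 2 groups alone, and 5031 at 60 days and 5471 at 4 days with array weights, against 180 and 295 for 60 and 4 days in the fit used throughout. The resistant tumours differed from the untreated ones by 0.22 (95% interval -0.21 to 0.64) and from the 60-day ones by -0.37 (95% interval -0.79 to 0.06). The 10 replicate spots of the Erbb2 probe on an array differed by a median SD of 0.08 log2 units, well under the spread between biopsies of a group (0.29).

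Erbb2 moved with markers of skin appendages, keratinocytes and melanocytes. Over the 16 biopsies its ratio followed the mean of 10 sebaceous gland markers with Pearson's r = 0.88 (Spearman 0.73; 0.78 without the 2 farthest biopsies), of 15 keratinocyte markers with r = 0.74 and of 14 hair shaft markers with r = 0.73. It followed the 16 melanocyte markers about as closely as the keratinocyte and hair shaft ones (r = 0.71, Spearman 0.62; 0.73 without the 2 farthest; 0.74 within slide 1 and 0.85 within slide 2). With the group means taken out, r was 0.80 with sebaceous, 0.71 with keratinocyte, 0.57 with hair shaft and 0.52 with melanocyte markers. Erbb2 ran opposite to fibroblast (r = -0.77) and to monocyte and macrophage markers (r = -0.76). The sebaceous list averaged 0.65 to 1.45 in the untreated, 1.67 to 2.31 in the 4-day, 2.06 to 2.55 in the 60-day and 0.25 to 2.34 in the resistant tumours, with resistant replicate 1 lowest. Of these 10 markers 7 were above background on every array and none was below it on all. The melanocyte list averaged 1.00 to 1.53 in the untreated and 1.86 to 2.73 in the 60-day tumours. The part of these cell types in the Erbb2 difference was not tested. In bulk tissue, fewer cells of a type and less RNA per cell cannot be told apart.

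Egfr encodes the epidermal growth factor receptor, the ERBB member that binds EGF, TGF-alpha and amphiregulin. It was read by 3 probes on chromosome 11 (build mm9, plus strand), which match 2 RefSeq transcripts of the gene. The first 30 of the 60 bases of each are shown because their 3 readings differed in size and in spread.
A_52_P106259: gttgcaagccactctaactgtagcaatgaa
A_55_P1956863: tctggaagtatgcagatgccaataatgtct
A_55_P1956862: gaagtgtggccatctgggtacgttcaatgg
The first, at 16813815 to 16813874, is assigned to NM_207655, was printed in 10 spots and is the brightest, so it stands for the gene. The others, at 16783556 to 16783615 and 16787172 to 16787231, are assigned to NM_007912 and lie upstream of it in the gene's direction.

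With the brightest probe, Egfr was 1.08, 0.94, 1.35 and 1.57 in the untreated, 1.34, 1.31, 1.93 and 1.87 in the 4-day, 1.32, 1.15, 1.74 and 1.70 in the 60-day and 1.10, 0.43, 1.57 and 1.57 in the resistant tumours. Within every group the slide 1 biopsies read higher than the slide 2 biopsies, and all groups overlapped. The 4-day mean exceeded the untreated one by 0.38 ± 0.25 (95% interval -0.16 to 0.92; adjusted p = 0.501 in limma), with 0.44 on slide 1 and 0.31 on slide 2. With the slide as a block its unadjusted p was 0.0109 and its adjusted p 0.123. The resistant mean differed from the untreated one by -0.06 (95% interval -0.60 to 0.47). It differed from the 4-day mean by -0.44 (95% interval -0.98 to 0.09; adjusted p = 0.699 in limma), with -0.33 on slide 1 and -0.56 on slide 2. From the 60-day mean it differed by -0.31 (95% interval -0.85 to 0.23). With the slide as a block the unadjusted p of these were 0.00406 and 0.0313 and the adjusted p 0.299 and 0.599 in limma.

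The upstream Egfr probe A_55_P1956863 separated the groups more tightly. It read 0.72, 0.55, 0.77 and 0.78 in untreated tumours against 1.09, 1.03, 1.14 and 1.06 at 4 days and 1.06, 1.00, 0.99 and 1.14 at 60 days, so that neither treated group overlapped the untreated one. In the resistant tumours it read 1.13, 0.52, 1.01 and 0.93, with replicate 2 below all untreated biopsies and the other 3 above them. Tested as one of 30486 probes, its 4-day difference was 0.38 ± 0.12 (unadjusted p = 0.00597, adjusted p = 0.137 in limma) and its 60-day difference 0.34 ± 0.12 (adjusted p = 0.149). The probe A_55_P1956862 differed by 0.27 at 4 days (adjusted p = 0.300) but by 0.01 at 60 days (adjusted p = 0.979). The 3 probes thus shared the sign of both differences but differed in the size of the 60-day one, from 0.01 to 0.34. For resistant minus untreated tumours the signs differed: -0.06 with the brightest probe, 0.19 with A_55_P1956863 and 0.05 with A_55_P1956862. None passed (adjusted p = 0.969, 0.654 and 0.95 in limma, in that order). For resistant minus 60-day tumours they gave -0.31, -0.15 and 0.04. For resistant minus 4-day tumours all were negative (-0.44, -0.18 and -0.22).

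Erbb3 encodes the neuregulin receptor of the family, which has little kinase activity of its own and signals by pairing with ERBB2 or EGFR. Its single probe (chromosome 10, 128006424 to 128006483, minus strand) was the dimmest of the gene-level probes, and its reference channel was not above background on 13 of the 16 arrays, so its ratios rest on a weak reference. Its tumour signal was also only 46 to 137 above background, where the offset added in background correction makes measured differences smaller. Erbb3 was 1.18, 1.72, 0.55 and 1.25 in the untreated, 1.14, 1.42, 0.70 and 0.65 in the 4-day, 1.40, 0.71, 0.66 and 0.96 in the 60-day and 1.05, 1.30, 0.59 and 0.77 in the resistant tumours. All 4 groups overlapped. The untreated mean was the highest, with differences of -0.20 (4-day; 95% interval -0.74 to 0.34), -0.24 (60-day; -0.79 to 0.30) and -0.25 (resistant; -0.79 to 0.30), none of which passed in limma (adjusted p = 0.798, 0.672 and 0.827). Across biopsies Erbb3 followed the mean of 12 Schwann cell and nerve markers (r = 0.86, Spearman 0.85; 0.80 without the 2 farthest; 0.63 within slide 1 and 0.92 within slide 2). That list averaged 1.55 to 2.29 in the untreated and 1.54 to 2.16 in the resistant tumours.

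Met encodes the receptor for hepatocyte growth factor, a ligand that stromal cells secrete. Its probe (chromosome 6, 17503299 to 17503358, plus strand) read -1.18, -1.05, -0.93 and -0.95 in the untreated, -0.98, -0.63, -1.03 and -0.62 in the 4-day, -1.13, -0.69, -0.83 and -0.64 in the 60-day and -0.70, -0.75, -1.03 and -0.73 in the resistant tumours. Every biopsy lay below the reference, and the untreated mean was the lowest. Met varied little: its SD over all biopsies, 0.19, was at percentile 24.7 of all genes. The differences from untreated tumours were 0.21 (4-day; 95% interval -0.08 to 0.50), 0.21 (60-day; -0.08 to 0.50) and 0.22 (resistant; -0.07 to 0.51), with adjusted p of 0.478, 0.451 and 0.646 in limma. The upper bound of 0.51 in the resistant tumours lies under the log2 difference of 1 that stands for a doubling. This bound holds for the measured ratio only. The tumour signal of Met was only 42 to 105 above background. At such signals the offset added in background correction makes measured differences smaller, so a doubling of Met mRNA is not excluded.

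Igf1r encodes the receptor for insulin-like growth factors, which signals mainly through IRS adaptors to PI3K. Its probe (chromosome 7, 75378461 to 75378520, plus strand) read -0.97, -0.68, -0.02 and -0.57 in the untreated and -0.49, -1.09, 0.15 and -0.79 in the resistant tumours, which spread the most. At 4 days it read -0.47, -0.73, -0.64 and -0.16, and at 60 days -0.74, -0.68, -0.67 and -0.67. The group means lay within 0.19 of each other and all groups overlapped. Resistant and untreated tumours differed by 0.01 (95% interval -0.50 to 0.52; adjusted p = 0.997 in limma).

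Axl encodes the receptor for GAS6, and a high level of it marks melanoma cells with low MITF in many cell lines. Its probe (chromosome 7, 26542541 to 26542600, minus strand) read 0.03, 0.14, 0.56 and 0.38 in the untreated, -0.22, -0.03, 0.47 and -0.32 in the 4-day, 0.08, -0.24, -0.07 and 0.17 in the 60-day and 0.40, -0.25, 0.32 and 0.05 in the resistant tumours. All 4 untreated biopsies lay above the reference, and the other groups held biopsies on both sides of it. The differences from untreated tumours were -0.31 (4-day; 95% interval -0.71 to 0.10; adjusted p = 0.457), -0.29 (60-day; -0.70 to 0.11; adjusted p = 0.434) and -0.15 (resistant; -0.56 to 0.25; adjusted p = 0.862) in limma. Axl ran opposite to the mean of the melanocyte markers, a list that includes Mitf (r = -0.75, Spearman -0.73; -0.67 within slide 1 and -0.83 within slide 2). It also ran opposite to keratinocyte (r = -0.63, Spearman -0.75; -0.67 and -0.85 within slides 1 and 2) and sebaceous markers (r = -0.58, Spearman -0.67; -0.72 and -0.76), so the relation was not limited to melanocyte markers. The melanocyte list averaged 1.31 in the untreated, 2.22 in the 4-day, 2.23 in the 60-day and 1.44 in the resistant tumours.

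Pdgfrb encodes the PDGF receptor of pericytes and fibroblasts, and has been found raised in melanomas that escaped BRAF inhibition. Its probe lies on chromosome 18 (61244606 to 61244665, plus strand). Pdgfrb was 2.05, 2.26, 2.44 and 2.01 in the untreated, 1.79, 2.18, 1.62 and 1.13 in the 4-day, 2.15, 1.23, 1.86 and 1.75 in the 60-day and 2.84, 2.18, 2.16 and 2.33 in the resistant tumours. It was lower in most treated biopsies and highest on average in the resistant ones. The lowest resistant value (2.155) and the highest 60-day value (2.153) were practically equal, so these groups met rather than separated. In the 4-day group 3 of 4 biopsies lay below every untreated one, and so did 3 of 4 in the 60-day group.

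The resistant mean exceeded the 4-day mean of Pdgfrb by 0.70 ± 0.23 (95% interval 0.20 to 1.19; 1.62-fold; unadjusted p = 0.00935, adjusted p = 0.532 in limma) and the 60-day mean by 0.63 ± 0.23 (95% interval 0.13 to 1.12; unadjusted p = 0.017, adjusted p = 0.867). Without resistant replicate 1 these were 0.54 and 0.47. The 4-day mean was below the untreated one by a log2 difference of -0.51 ± 0.23 (95% interval -1.01 to -0.01; adjusted p = 0.289), with -0.85 on slide 1 and -0.17 on slide 2. Resistant and untreated tumours differed by 0.19 (95% interval -0.31 to 0.68; adjusted p = 0.862). Pericyte and smooth muscle markers, the cell type best known for Pdgfrb, did not follow it (r = -0.07 over 16 biopsies), fibroblast markers did so loosely (r = 0.49), and adipocyte markers ran opposite to it (r = -0.71; -0.74 within slide 1 and -0.73 within slide 2).

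Pdgfra encodes the PDGF receptor typical of fibroblasts. Its probe (chromosome 5, 75593888 to 75593947, plus strand) read -0.17, -0.21, -0.69 and -0.04 in the untreated, -0.34, 0.27, 0.06 and -0.90 in the 4-day, -0.19, -0.60, 0.44 and -0.12 in the 60-day and 1.37, 0.32, -0.35 and -0.52 in the resistant tumours. Resistant replicate 1 was the highest of the 16 and the other groups overlapped throughout. The resistant mean exceeded the untreated one by 0.48 (95% interval -0.30 to 1.27; adjusted p = 0.740 in limma), and by 0.09 without that biopsy. The difference was -0.07 on slide 1 and 1.04 on slide 2, the slide that holds it. Against 60-day tumours the difference was 0.32, and -0.06 without that biopsy.

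**Figure D2:**
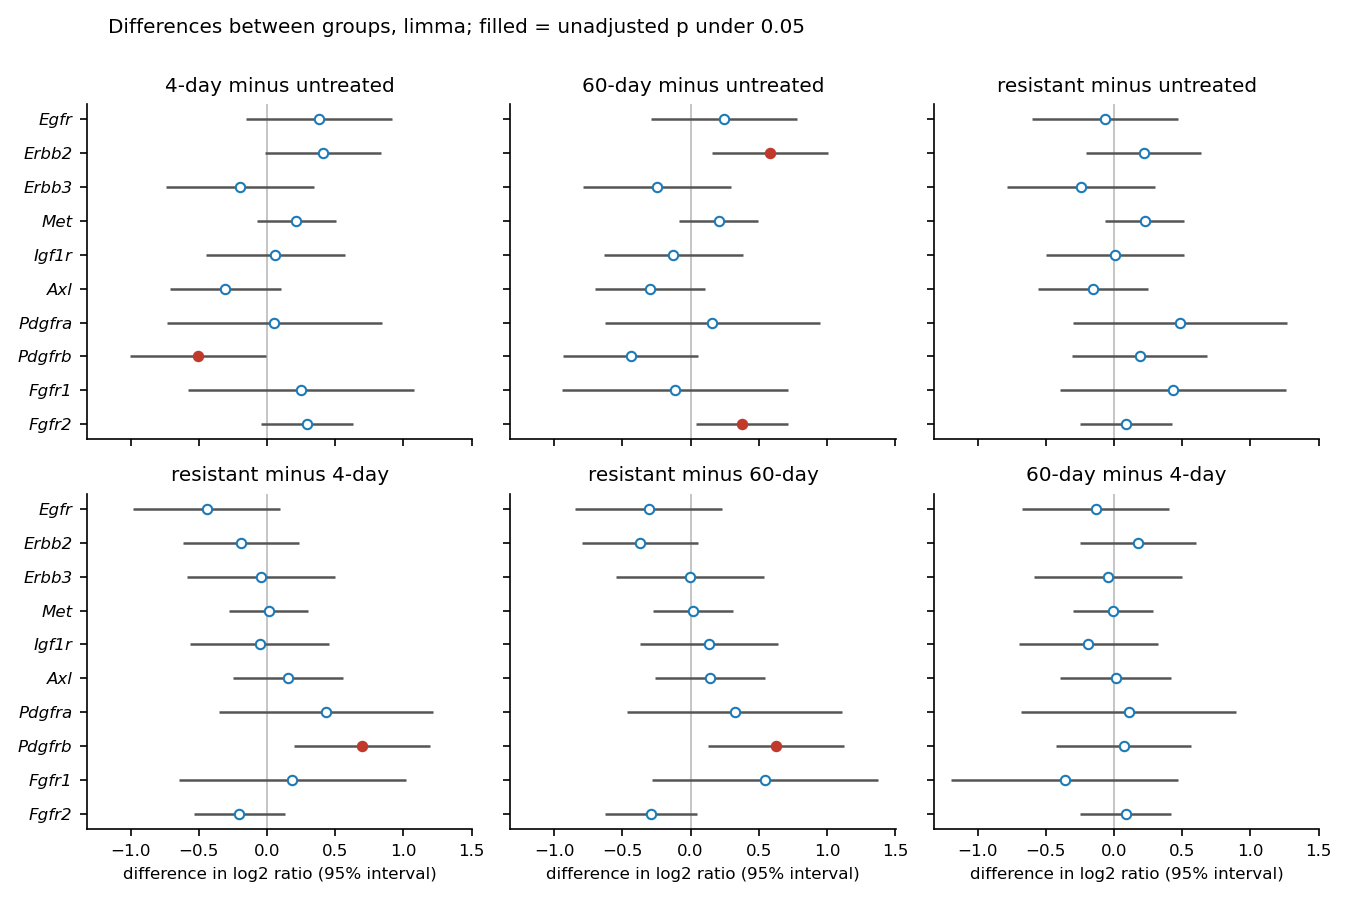
Difference in log2 ratio (horizontal axis) for each receptor in the 6 comparisons, with the 95% interval from limma, n = 4 per group; filled points have an unadjusted p under 0.05. These are Pdgfrb (4-day against untreated, resistant against 4-day and against 60-day) and Erbb2 and Fgfr2 (60-day against untreated); most intervals include 0.

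Fgfr1 and Fgfr2 encode receptors for fibroblast growth factors, with Fgfr1 typical of mesenchymal tissue and Fgfr2 of epithelium. Fgfr1 was read by 3 probes on chromosome 8 (mm9, plus strand) and Fgfr2 by a pair on chromosome 7 (minus strand). Their first 30 bases are shown because the Fgfr1 probes disagreed, whereas the Fgfr2 probes overlap; capitals mark the 12 bases that both Fgfr2 stretches hold.
A_55_P2057777 (Fgfr1): gagacgcccagggtagcatccgttgctata
A_55_P1967022 (Fgfr1): agacctacgttcaagcagttggtggaagac
A_55_P1967015 (Fgfr1): agccttagagggtttgtttttgttttttgt
A_55_P2094881 (Fgfr2): atgccttatgaaccctgtCTGCCTCAGTAT
A_51_P432403 (Fgfr2): CTGCCTCAGTATccacacataaacggcagt
The Fgfr1 probes start at 26685072, 26684061 and 26685820 and all match NM_010206. The Fgfr2 probes, at 137307473 to 137307532 and 137307455 to 137307514, are shifted by 18 bases and share 42 of their 60.

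With its brightest probe, A_55_P2057777, Fgfr1 was 0.89, 0.98, 0.17 and 0.43 in the untreated, 0.85, 1.40, 1.04 and 0.18 in the 4-day, 0.96, 0.77, 0.10 and 0.18 in the 60-day and 2.05, 1.58, 0.38 and 0.19 in the resistant tumours. Resistant replicates 1 and 2, both on slide 2, were the highest of the 16, and resistant replicates 3 and 4 lay within the untreated range. The resistant mean exceeded the untreated one by 0.43 (95% interval -0.40 to 1.26; adjusted p = 0.790 in limma), with -0.01 on slide 1 and 0.88 on slide 2, and by 0.10 without resistant replicate 1. Against 4-day tumours the difference turned from 0.18 to -0.15 without that biopsy.

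The Fgfr1 probes did not agree in direction. Resistant replicates 1 to 4 read 1.13, 0.66, 0.13 and 0.34 with A_55_P1967022, against 0.18, 0.25, 0.24 and 0.74 in the untreated tumours, a difference of 0.21 (adjusted p = 0.794 in limma). With A_55_P1967015 they read 0.59, 0.56, 0.32 and 0.46, against 0.91, 0.89, 0.30 and 0.98, a difference of -0.29 (adjusted p = 0.565). So 2 probes put the resistant mean above the untreated mean and 1 put it below, and which transcripts each probe reads was not analysed here.

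Fgfr2 was -0.23, -0.06, 0.01 and 0.06 in the untreated, 0.30, 0.12, 0.11 and 0.40 in the 4-day and 0.07, 0.32, 0.39 and 0.49 in the 60-day tumours with the brighter probe, A_55_P2094881. Neither treated group overlapped the untreated one, although the highest untreated value (0.06) nearly met the lowest 60-day value (0.07). In the resistant tumours it read -0.35, -0.17, 0.25 and 0.40, the slide 2 biopsies at the bottom of the untreated range or below it and the slide 1 biopsies above it. The 60-day mean exceeded the untreated mean by 0.38 ± 0.16 (95% interval 0.04 to 0.71; 1.30-fold; unadjusted p = 0.0306, adjusted p = 0.219 in limma) and the 4-day mean by 0.29 ± 0.16 (95% interval -0.04 to 0.63; adjusted p = 0.374). The difference between 60-day and untreated tumours was 0.41 on slide 1 and 0.35 on slide 2. With the slide as a block its unadjusted p was 0.00782 and its adjusted p 0.0973 in limma. The tumour signal of A_55_P2094881 was 88 to 236 above background, so the offset added in background correction makes these differences and intervals smaller too. The overlapping probe A_51_P432403 was not above background in untreated replicates 1 and 4 and resistant replicates 1 and 2, so its values there lie near the floor. It gave 0.51 for the same comparison (unadjusted p = 0.00434, adjusted p = 0.106) and 0.34 at 4 days (adjusted p = 0.288). With this probe the 60-day tumours read 0.38 to 0.56, and the untreated tumours above background -0.17 and 0.34.

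**Figure D3:**
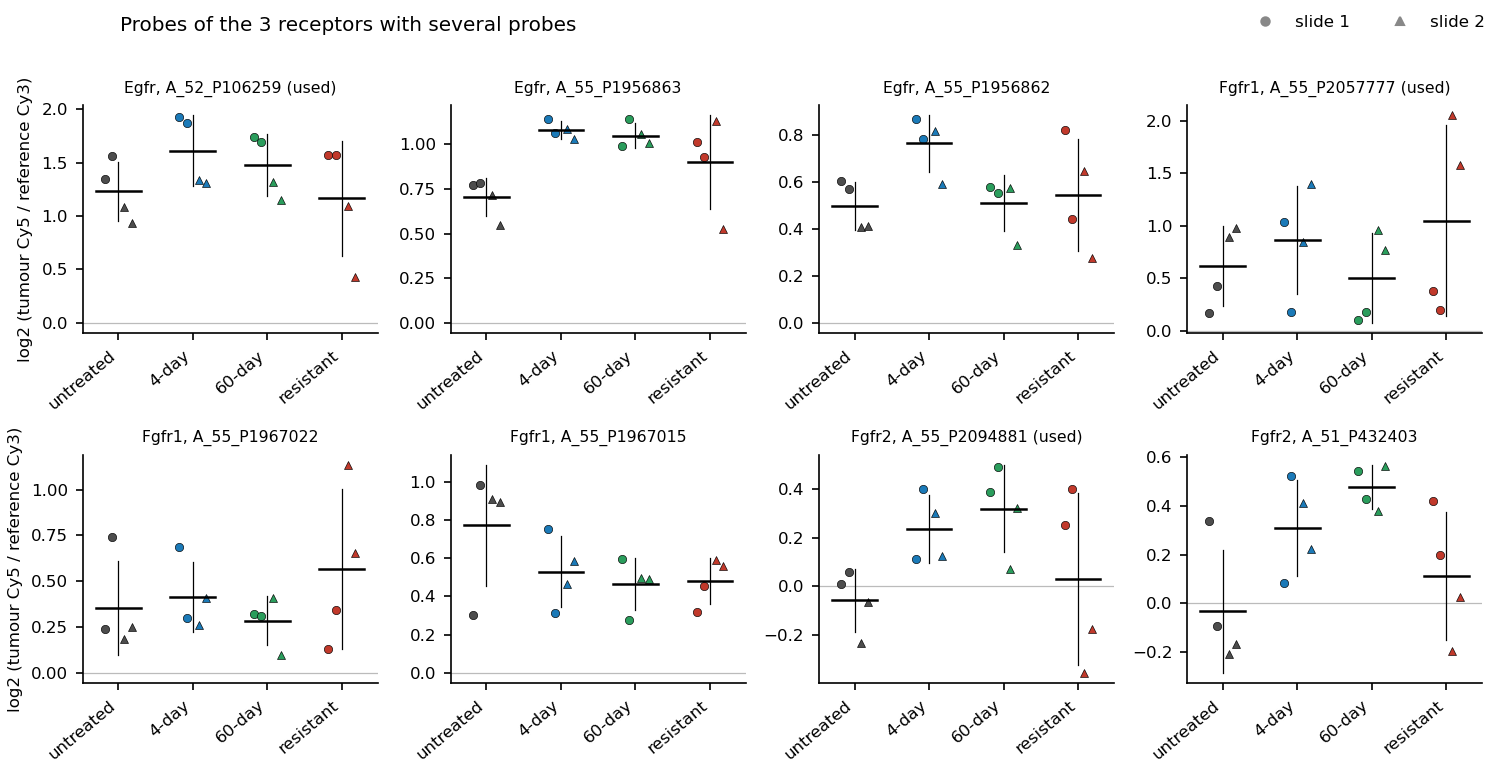
Log2 tumour over reference ratio (vertical axis) in the 4 groups (horizontal axis) for the 3 Egfr, 3 Fgfr1 and 2 Fgfr2 probes, circles for slide 1 and triangles for slide 2, with the group mean and 1 SD (n = 4). Egfr probe A_55_P1956863 shows both treated groups (0.99 to 1.14) above the untreated one (0.55 to 0.78), while the Fgfr1 probes place the resistant tumours differently.

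Several receptors differed between the slides when read by their brightest probes. With the group in the model, slide 2 minus slide 1 was -0.58 ± 0.09 for Egfr (adjusted p = 0.000611 in limma), 0.85 ± 0.16 for Fgfr1 (adjusted p = 0.00212), 0.47 ± 0.13 for Erbb3 (adjusted p = 0.0171) and -0.27 ± 0.09 for Fgfr2 (adjusted p = 0.0328). These 4 of 10 receptors passed, as did 28.4% of all genes. This holds for the brightest probe of each gene. For Egfr it read 1.35 to 1.93 on slide 1 and 0.43 to 1.34 on slide 2. The slides overlapped with A_55_P1956863 (0.77 to 1.14 and 0.52 to 1.13) and A_55_P1956862 (0.44 to 0.87 and 0.27 to 0.82). For Fgfr1 it read 0.10 to 1.04 and 0.77 to 2.05. A_55_P1967022 read 0.13 to 0.74 and 0.10 to 1.13, and A_55_P1967015 0.28 to 0.98 and 0.47 to 0.91. The slide term was read for the brightest probes only. For Erbb2, Met, Pdgfra and Pdgfrb the slide differences were -0.09, -0.04, 0.32 and 0.17 and none passed (adjusted p = 0.666, 0.775, 0.374 and 0.455). The same holds for Igf1r (-0.31, adjusted p = 0.145) and Axl (-0.21, adjusted p = 0.238). Each slide held different biopsies, and in the 60-day and resistant groups a code in the sample titles, whose meaning is not given, also changed with the slide. The slide and the biopsies on it therefore cannot be told apart.

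Some receptors varied together across the biopsies, and others oppositely. Each receptor was read here by its brightest probe alone. Erbb2 and Fgfr2 varied together (r = 0.80 over 16 biopsies, Spearman 0.81; 0.65 without the 2 farthest; 0.81 within slide 1 and 0.91 within slide 2). Fgfr1 and Fgfr2 ran opposite to each other (r = -0.74; -0.48 within slide 1 and -0.67 within slide 2). Pdgfra followed Fgfr1 (r = 0.69), but with r = 0.39 once the 2 farthest biopsies were left out and 0.28 within slide 1. Egfr and Fgfr1 ran opposite over all biopsies (r = -0.64) but not within slide 1 (r = 0.46). These 4 are among the largest of 45 receptor pairs and are given as descriptions: the biopsies share groups, slides and tissue composition, and the ratios share a reference.

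Of the 120 pairs of a receptor and a marker list, the largest were Fgfr1 with 12 endothelial markers (r = 0.88, Spearman 0.86; 0.77 without the 2 farthest; 0.43 within slide 1 and 0.83 within slide 2) and Erbb2 with the sebaceous list. Next came Fgfr2 with 14 monocyte and macrophage markers (r = -0.87, Spearman -0.82; -0.78 within slide 1 and -0.83 within slide 2) and Erbb3 with the Schwann cell list. The endothelial list averaged 2.73 and 2.74 in resistant replicates 1 and 2, and 1.63 and 1.92 in replicates 3 and 4. Resistant replicates 1 and 2 had the highest Fgfr1 by its brightest probe, the only Fgfr1 probe used in these correlations. In these biopsies A_55_P1967022 read 1.13 and 0.66, against 0.18, 0.25, 0.24 and 0.74 in the untreated tumours. There A_55_P1967015 read 0.59 and 0.56, against 0.91, 0.89, 0.30 and 0.98 in the untreated tumours. The macrophage list averaged 1.87 to 2.64 in the untreated, 1.32 to 2.36 in the 4-day, 1.52 to 2.19 in the 60-day and 1.73 to 2.85 in the resistant tumours. Of these lists all 12 endothelial and 14 of 15 macrophage markers were above background on every array. The part of these cell types in the receptor values was not tested.

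**Figure D4:**
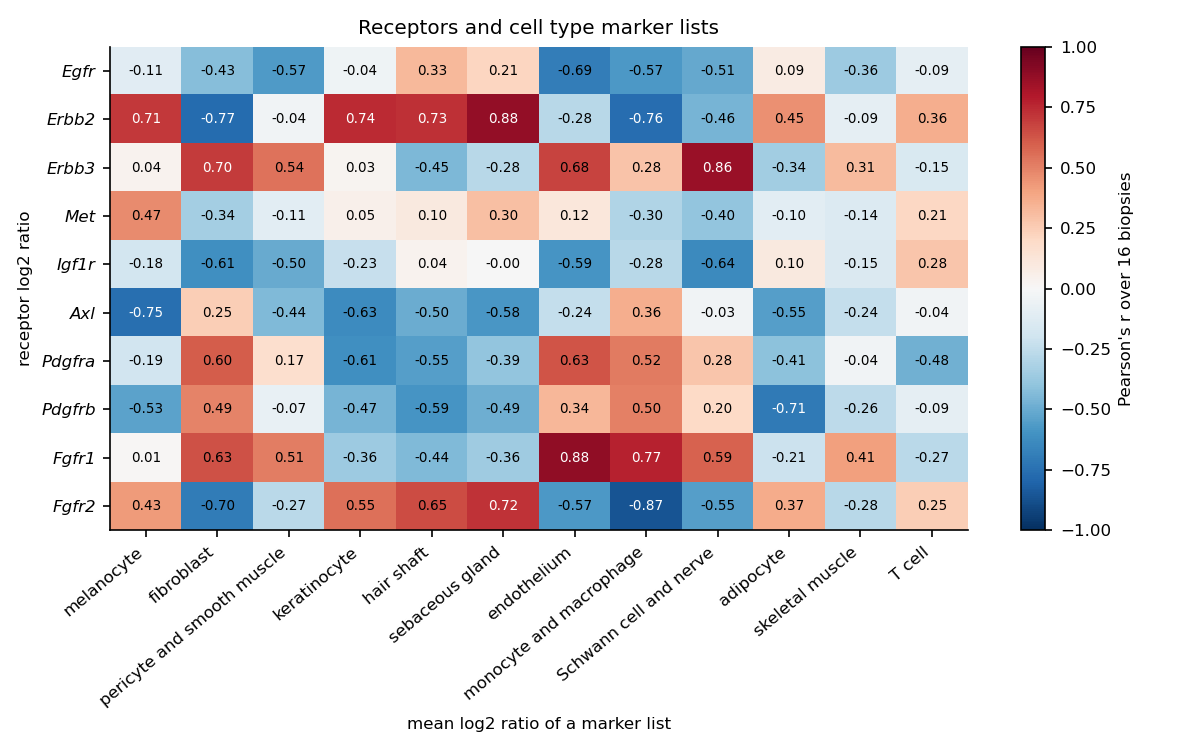
Pearson's r over 16 biopsies between each receptor's log2 ratio (rows) and the mean log2 ratio of each of 12 marker lists (columns), from -1 in blue to 1 in red. Erbb2 and Fgfr2 are positive with keratinocyte, hair shaft and sebaceous markers, and Fgfr1 with endothelial and macrophage markers. Each receptor is read by its brightest probe.

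**Figure D5:**
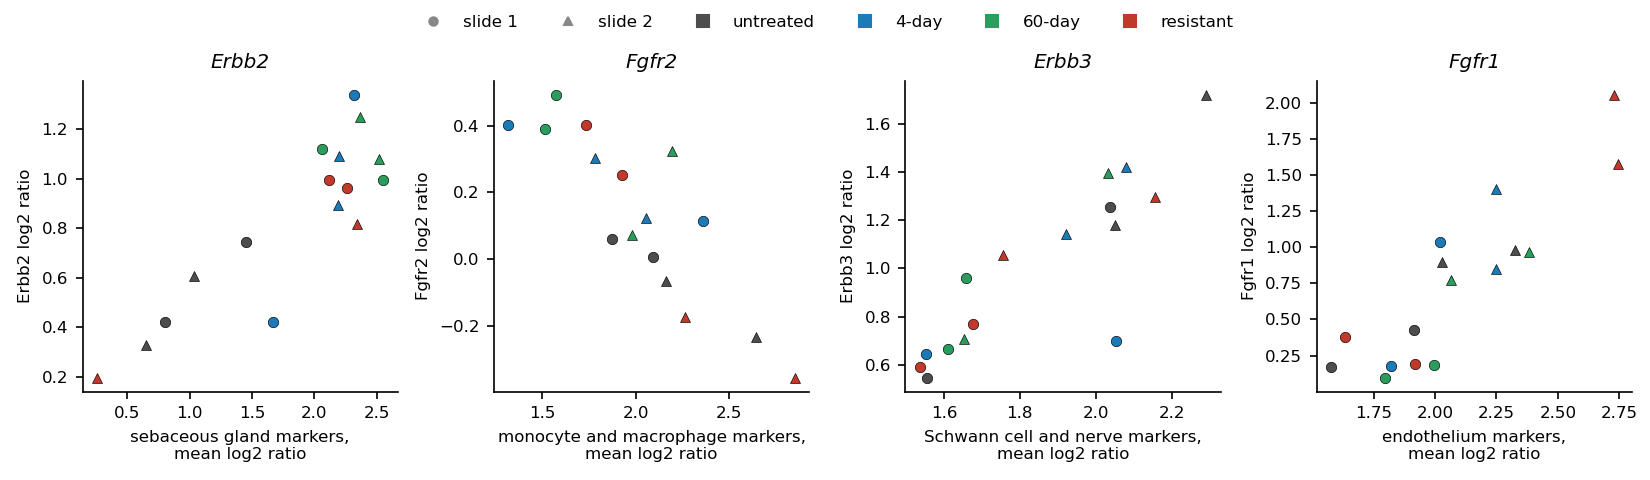
Receptor log2 ratio (vertical axis) against the mean log2 ratio of a marker list (horizontal axis), 1 point per biopsy, coloured by group and shaped by slide. Resistant replicate 1 (slide 2) lies at the end of the Erbb2, Fgfr2 and Fgfr1 panels, at 0.20, -0.35 and 2.05. Each receptor is read by its brightest probe.

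The 3 genes nearest to each receptor, read by its brightest probe, are named as a description of the highest correlations among many. Of 15549 genes above background on every array, the nearest to Erbb2 were Cracdl, Zdhhc9 and Phldb3 (r = 0.97, 0.96 and 0.96 over 16 biopsies), and the nearest to Fgfr1 were Ap5s1, Aph1a and Fbrsl1 (each 0.94). For Erbb3 they were Pnmal2 (0.94), Ttc28 (0.91) and Prickle2 (0.90), and for Fgfr2 N4bp3 (0.92), Arl4a (0.91) and Orm2 (0.91). Egfr was nearest to Reep5 (0.90), Zmym2 (0.89) and Rictor (0.88), Axl to Dlg4, Arhgap31 and Msl3l2 (each 0.90), and Pdgfrb to Camkk2 (0.88), Fam20a (0.88) and Tbx3 (0.84). Within slide 1 the Egfr values fell to 0.69, 0.33 and 0.66, and within slide 2 they were 0.87, 0.87 and 0.72. The likeness was weaker for Met, with Pld3 (0.85), Lyst (0.78) and Comtd1 (0.76). For Pdgfra (Tbcel, 0.87; Fam161a, 0.87; Fth1, 0.85) and Igf1r (Psma5, 0.86; Hmgxb4, 0.85; Trmt5, 0.84) it fell to between 0.54 and 0.71 without the 2 biopsies farthest from the median.

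Of 23 measured genes on a list of ligands of these receptor families, 1 rose, in 60-day against untreated tumours (0.819% of all genes passed there). It was Nrg4, a neuregulin whose receptor is ERBB4, the family member outside the 10. Erbb4 itself did not pass the filter on dim probes. The Nrg4 probe (chromosome 9, 55068030 to 55068089) read 0.46, 0.40, 1.05 and 0.38 in the untreated and 2.08, 2.19, 1.92 and 1.70 in the 60-day tumours, with no overlap. The difference was 1.40 ± 0.29 (2.63-fold; adjusted p = 0.0393 in limma). Nrg4 read 1.86, 2.09, 1.33 and 1.91 at 4 days (difference 1.22, adjusted p = 0.0553) and 0.14, 1.79, 1.31 and 1.51 in the resistant tumours, where replicate 1 was not above background. The call did not hold when any one of 10 arrays was left out (untreated replicates 1, 2 and 4, 4-day replicates 1 and 4, every 60-day replicate and resistant replicate 4), with adjusted p from 0.00474 to 0.128 over the 16 such fits. It was also lost in 8 of 12 other alternatives (difference 0.91 to 1.71, adjusted p from 0.000308 to 0.584), and the other Nrg4 probes differed by 0.89 (adjusted p = 0.138) and 0.70 (adjusted p = 0.0565). The sebaceous marker list was higher in the same groups, as described for Erbb2, and its part in the Nrg4 difference was not tested.

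No other gene on the ligand list passed in any of the 6 comparisons. Pdgfa, a ligand of both PDGF receptors, came nearest (4-day minus untreated -1.48 ± 0.35, adjusted p = 0.053 in limma): it read 2.50, 2.54, 1.56 and 2.82 in untreated against 0.45, 1.16, 1.50 and 0.39 in 4-day tumours, where the nearest values of the groups were 1.56 and 1.50. Its second probe, A_55_P2007470, did pass when each probe was tested on its own (-1.42, adjusted p = 0.0491 over 30486 probes). Pdgfa and the genes named in the rest of this paragraph were chosen after their values were seen. Of 12 further receptors, those of the same families and Igf2r, 0 passed. At an unadjusted p under 0.05 in limma were 3 at 4 days and 4 at 60 days against untreated tumours (16.7% and 18.7% of all genes). Resistant tumours gave 1 against untreated (9.52%), 1 against 4-day (8.19%) and 2 against 60-day tumours (5.67%). The comparison of 60-day with 4-day tumours gave 0 (1.87%). The decoy receptor Igf2r, which takes up and degrades IGF2, was 0.55, 0.71, 0.93 and 0.77 in untreated against 0.14, 0.61, -0.01 and 0.22 in 4-day tumours (difference -0.50 ± 0.14, adjusted p = 0.089). Kit, the stem cell factor receptor of melanocytes and mast cells, was higher by 0.90 at 60 days (adjusted p = 0.175). Fgfr3 differed by more at 60 days but did not pass. It read 1.88, 1.50, 2.52 and 1.46 in untreated against 3.04, 3.48, 2.89 and 2.78 in 60-day tumours. Of 24 adaptors and negative regulators 0 passed. At an unadjusted p under 0.05 in limma were 6 at 4 days and 6 at 60 days against untreated tumours. In the other comparisons, in the order given above, the counts were 2, 3, 2 and 0, beside the same shares of all genes. Among these 24 genes, Lrig1, which targets ERBB receptors for degradation, differed by 1.01 ± 0.38 at 4 days (adjusted p = 0.203). Grb7 differed by more at 4 days but did not pass. It read -0.07, -0.22, 1.66 and -0.56 in untreated against 2.20, 1.30, 0.54 and 2.27 in 4-day tumours. At 60 days Grb7 read 1.75, 2.30, 1.95 and 1.93, above all untreated values.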

How the data were processed

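Tumour (Cy5) and reference (Cy3) intensities of each spot, were read by version 10.7.3.1 of Agilent's Feature Extraction, according to the array files, and were used as deposited: mean and background-median intensity, the flags (values of another kind, 0 or 1, per the file headers), and, for alternatives, the processed signals and the log10 ratio. The deposited value table holds log2 ratios whose scale matched the files' log ratio (slope 0.993). Genome build mm9 is that of the file headers. Here, normexp background correction (offset 50), loess within arrays and averaging of spots gave log2 ratios. Outlier spots were dropped (0.157% of values). Probes well above background on at least 4 of 16 arrays were kept (30486), and 1651 symbols were updated through RefSeq. The brightest probe stood for a gene (21985). One limma 3.58.1 model (R 4.3.3) with 4 groups gave differences with SE, 95% intervals and Benjamini-Hochberg adjusted p per comparison. The script was tested on simulated data. The number of arrays limits the precision. Members, gene lists and marker lists were chosen with earlier results of these data known. From the ligand, adaptor and further receptor lists, genes past the threshold are named, and for each receptor the 3 genes with the highest correlation. Alternatives were other normalisations, signals, filters, probe rules, slide settings, array weights, 2-group fits and each array left out. Testing each probe alone and reading the slide term were added after seeing the data.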

Additional observations from a re-analysis of the deposited data

Results flagged for a closer look

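Among 40 groups of 4 biopsies (10 receptors in 4 groups), 2 held a biopsy whose gap to its nearest neighbour passed Dixon's 95% critical value as a share of the group's range, and chance gives about 1 such group in 20. Met in resistant replicate 3 was at -1.03, where the other 3 resistant tumours lay between -0.75 and -0.70. Igf1r in 60-day replicate 1 was at -0.74, where the other 3 lay between -0.68 and -0.67, a gap that is small beside the range of Igf1r over all biopsies (1.24).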

How the results depend on the processing

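Of 208 recomputed counts of receptors passing the threshold, 204 stayed at 0. Array weights gave 1 (Erbb2) in 4-day against untreated tumours, 1 in 60-day against untreated tumours and 1 for any difference among the groups, and fitting the 2 groups alone gave 1 in 60-day against untreated tumours. Leaving out any single array gave 0 in every comparison it touched. Testing each probe on its own gave 0 in all 6 comparisons. Of 145 recomputed values of the 5 differences with an unadjusted p under 0.05, all kept their direction. The other 55 differences changed sign in 18 cases on slide 1 alone, 8 on slide 2 alone, 7 with array weights, 7 in the deposited value table, 6 with median centring and 6 with the processed signals, and in 55 of 880 values with one array left out. The count over all genes varied widely: 295 in 4-day against untreated tumours (0 on slide 1 alone, 5471 with array weights), 180 at 60 days (0 and 5031, with 1258 for the 2 groups alone), 4 for resistant against untreated (0 and 1739) and 1 for resistant against 4-day tumours (0 with the 2 groups alone, 137 with array weights). Resistant against 60-day tumours gave 0 (at most 1, in the value table) and 60-day against 4-day tumours 0 (at most 2, with array weights). No paired analysis was possible because the replicate numbers follow accession order and pair no biopsies. Array weights also gave 3 and 4 further receptors, 9 and 8 ligands and 12 and 9 adaptors past the threshold at 4 and 60 days. Signal over background limited Erbb3, whose reference was dim, Met, whose tumour signal was only 42 to 105, and the second Fgfr2 probe.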
